A study of Mus musculus with 4 samples.

Results

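Natural killer-like (NK-like) lymphocytes of mouse fracture callus were picked cell by cell from 4 single-cell RNA sequencing libraries. A cell was taken when it held at least 2 unique molecular identifiers (UMIs, each standing for 1 captured mRNA molecule) of *Nkg7*, at least 2 of *Ncr1*, *Klrb1c* and *Gzma* added together, none of *Cd3e*, *Cd3d* or *Cd3g*, and at most 1 of *C1qa*. This gave 471 NK-like cells of 29803 kept cells. Kept cells had 1000 to 50000 UMIs, at least 500 genes and at most 15% mitochondrial UMIs, which 29803 of 34038 deposited barcodes met. The callus came from C57BL/6J wild-type mice aged 3 months, collected at 4 or 7 days post fracture (dpf). RA mice had received arthritogenic K/BxN serum, which transfers an antibody-driven arthritis, and control mice had received vehicle. The libraries are called control_4d, control_7d, RA_4d and RA_7d, and each was made from 1 pool of callus. The series' design gives a pool as 4 calluses, whereas the study's methods give n = 3, and the sources used here do not settle which holds.

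With 1 library per condition, RA and control could not be tested within a time point, nor the time points within a condition, and there condition and library cannot be told apart. No test over the pairs of libraries was made. Cells of a library are not replicates. Values are therefore given with 95% intervals that cover counting error only, not the spread between mice or preparations. The 8 genes of the rule (*Nkg7*, *Ncr1*, *Klrb1c*, *Gzma*, *Cd3e*, *Cd3d*, *Cd3g* and *C1qa*) were used to choose the cells, so their levels are a description. Where 4 values are listed, they follow the order control_4d, control_7d, RA_4d and RA_7d. The kept cells numbered 6400, 9039, 5004 and 9360, with a median of 15492, 14469, 15628 and 15525 UMIs. The NK-like cells among them held 559040, 814382, 833455 and 1654248 UMIs, with a median per cell of 7534, 5860, 7515 and 6099. A count of 0 in these sums allows a level of up to 5.37, 3.68, 3.6 and 1.81 CPM (3 UMIs per library). Levels are UMIs summed over the cells of a library, scaled to a common total as CPM, a relative level in which every sum has the same total. No barcode was NK-like in more than 1 library. Of the NK-like barcodes, 4 also occurred in another library, with different counts.

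NK cells are innate lymphocytes that kill stressed or infected cells without a rearranged antigen receptor. They read the target through activating receptors, such as NKp46 (*Ncr1*), NK1.1 (*Klrb1c*) and NKG2D (*Klrk1*), and through inhibitory receptors for MHC class I, which in mice belong largely to the Ly49 family (*Klra* genes). Killing is done by perforin (*Prf1*) and granzymes (*Gzma*, *Gzmb*) released from granules, and the cells also secrete interferon-γ and the chemokines *Ccl3*, *Ccl4*, *Ccl5* and *Xcl1*. Type 1 innate lymphoid cells (ILC1) share many of these receptors but stay in tissue. The T-box factors T-bet (*Tbx21*) and Eomes and the Runx factors are known regulators of this lineage.

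The promoters of the 3 cytotoxic rule genes other than *Klrb1c*, and of *Xcl1*, which the rule did not use, are shown because these genes are the markers by which the cells were chosen or labelled. Each run is 300 bases of RefSeq sequence (GRCm38.p6), from 250 bases before to 50 after the annotated start, 5′ to 3′ on the strand of the gene. Capitals mark the letters TGTGGT (core of a Runx motif) and AGGTGT (core of a T-box motif) or their reverse complements ACCACA and ACACCT. The runs lie at chr13:113100932-113101231 on the minus strand for *Gzma*, chr7:43436888-43437187 on the plus strand for *Nkg7*, chr7:4337465-4337764 on the plus strand for *Ncr1* (the table holds 2 starts for this gene) and chr1:164935473-164935772 on the minus strand for *Xcl1*.
Gzma: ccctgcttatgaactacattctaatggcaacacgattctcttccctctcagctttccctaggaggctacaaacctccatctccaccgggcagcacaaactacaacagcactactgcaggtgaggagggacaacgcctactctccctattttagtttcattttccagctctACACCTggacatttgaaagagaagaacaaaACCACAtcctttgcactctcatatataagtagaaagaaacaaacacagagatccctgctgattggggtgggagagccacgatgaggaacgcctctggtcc
Nkg7: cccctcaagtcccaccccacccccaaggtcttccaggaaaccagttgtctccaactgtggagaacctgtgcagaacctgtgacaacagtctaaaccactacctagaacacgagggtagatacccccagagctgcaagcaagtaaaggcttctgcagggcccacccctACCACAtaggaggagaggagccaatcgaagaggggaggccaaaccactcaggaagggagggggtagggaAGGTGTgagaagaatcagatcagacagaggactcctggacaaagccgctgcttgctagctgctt
Ncr1: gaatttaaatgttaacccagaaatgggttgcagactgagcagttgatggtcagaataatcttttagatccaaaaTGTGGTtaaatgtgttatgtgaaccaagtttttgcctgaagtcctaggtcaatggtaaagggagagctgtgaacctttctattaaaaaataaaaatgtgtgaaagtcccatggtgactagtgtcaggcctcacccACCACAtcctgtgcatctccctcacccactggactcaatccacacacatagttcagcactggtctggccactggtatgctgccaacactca
Xcl1: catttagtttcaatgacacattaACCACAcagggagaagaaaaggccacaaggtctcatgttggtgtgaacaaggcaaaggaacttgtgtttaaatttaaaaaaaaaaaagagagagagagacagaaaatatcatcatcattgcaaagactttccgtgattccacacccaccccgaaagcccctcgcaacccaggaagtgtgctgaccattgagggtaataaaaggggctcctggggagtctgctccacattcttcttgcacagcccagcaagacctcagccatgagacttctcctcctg
The Runx letters occurred at 1 place each in *Gzma*, *Nkg7* and *Xcl1* and at 2 places in *Ncr1*. The T-box letters occurred at 1 place each in *Gzma* and *Nkg7* and not in the windows of *Ncr1* and *Xcl1*. Of all 32851 promoters in the table, 16.8% held the Runx letters and 13.7% the T-box letters on either strand, so a match is common and describes the window without marking a binding site.

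The values of the rule were spread as follows. *Nkg7*, a granule membrane protein, had a median of 8, 6, 7 and 5 UMIs per NK-like cell, with a highest value of 36. *Gzma*, the most abundant granzyme here, had medians of 15, 8.5, 21 and 10 UMIs and ran from 0 to 187. *Ncr1* had a median of 1 UMI in every library, so this receptor sits close to the detection limit of single cells. Most cells passed on several genes. Of the 471 cells, 410 held *Gzma*, 327 *Ncr1* and 334 *Klrb1c*, and 41 were admitted by *Gzma* alone. Of these 41, 90.2% held *Klrd1*, 65.9% *Eomes* and 92.7% *Tyrobp*, none of which the rule used, and none held *Cd8a*.

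At the edges of the rule, 62 cells had exactly 2 *Nkg7* UMIs, whereas 37 cells met every other limit with 1. The cytotoxic sum was exactly 2 in 21 cells, and 25 cells met every other limit with a sum of 1. A further 135 cells, 95 of them from RA_4d, met every other limit with a sum of 0. Among cells past both cytotoxic limits, 486 had no CD3 UMI, 30 had 1 and 51 had 2 or more. The 30 cells with 1 CD3 UMI were outside the rule, and their summed *Trac* (9.45 CPM) and *Gzma* (1200 CPM) stood beside 9.32 and 2200 CPM in the NK-like cells. The 51 cells with 2 or more carried *Trac* at 209 CPM and *Cd8a* at 62.5 CPM. On the macrophage side, 446 cells had no *C1qa* UMI and 25 had 1, while 5 with 2 and 10 with more were left out.

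The label was checked against markers that the rule did not use. *Klrd1* (CD94), *Klrk1* and *Klre1* had a UMI in 92.1%, 85.6% and 86.0% of the NK-like cells, *Tyrobp* (the DAP12 adaptor) was at 1410, 1450, 1290 and 1480 CPM in control_4d, control_7d, RA_4d and RA_7d, and *Il2rb*, the IL-2 and IL-15 receptor chain, had a UMI in 97.9%. *Eomes* was detected in 319 of 471 cells (67.7%). In mesenchymal cells of the same libraries (at least 2 *Prrx1* UMIs and no *Ptprc*), which should lack it, the share with an *Eomes* UMI ran from 0.113% to 0.332%, although their median depth was 23726 to 30154 UMIs. T cell genes were near absent. *Cd8a*, *Cd8b1* and *Themis* had no UMI in any NK-like cell, *Cd4* had 1 and *Trac*, the T cell receptor α constant region, 36.

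Transcripts of the β constant region were the exception. *Trbc1* had a UMI in 78.2%, 80.5%, 79.3% and 83.9% of the NK-like cells of control_4d, control_7d, RA_4d and RA_7d, against 48.9%, 58.8%, 49.2% and 43.3% of CD3-positive T cells and at most 0.322% of mesenchymal cells. With every cell thinned at random to 2000 UMIs, which left out 1 NK-like cell and 1 to 5 T cells per library, the shares were 43.6%, 45.3%, 43.7% and 41.2% of NK-like cells and 35.6%, 38.1%, 29.1% and 32.5% of T cells. Its summed level was 276 CPM in the NK-like cells. In total 419 of the 471 cells held a UMI of *Trac*, *Trdc*, *Trbc1* or *Trbc2*, so a limit of no such UMI would have kept only 52 cells. The γδ T cell gene *Trdc* was at 37.6, 12.3, 21.6 and 26 CPM. B cell markers were at most 3.58 CPM in total, with *Ms4a1* at 0, and of the 5 mast cell and basophil markers only *Kit* was detected. Under the stricter cell limits of the study's methods, 328 of the 471 cells (69.6%) remained.

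A small set of NK-like cells also carried the transcripts of another cell type. Cells with at least 20 UMIs of any of 6 marker lists (macrophage, neutrophil, dendritic, mesenchymal, endothelial and erythroid) are called mixed below, a limit chosen after the data had been seen. There were 36 of them in 471, and by library 5, 10, 4 and 17. They made up 9.09%, 8.47%, 4.6% and 8.06% of the NK-like cells but held 28.8%, 23.8%, 12.6% and 27.0% of their UMIs. Their median depth was 21161 UMIs, against 6046 in the other 435 cells. By type, 18 passed on mesenchymal genes, 6 on macrophage, 5 on dendritic, 4 on endothelial, 3 on neutrophil and 2 on erythroid genes (a cell can pass on several). Scrublet called 14 of them doublets, 7 in control_7d, 7 in RA_7d and none in control_4d or RA_4d. A further 40 cells, all from the 7 dpf libraries, had 10 to 19 such UMIs. Among CD3-positive T cells 12%, 13.1%, 12.3% and 9.15% were mixed by the same limit. For the main comparisons of RA with control and of the time points, values without mixed cells are given beside those with all cells. For genes of the 6 lists, a lower level without mixed cells follows in part from how these cells were defined. Levels against T cells are given with all cells.

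**Figure D1:**
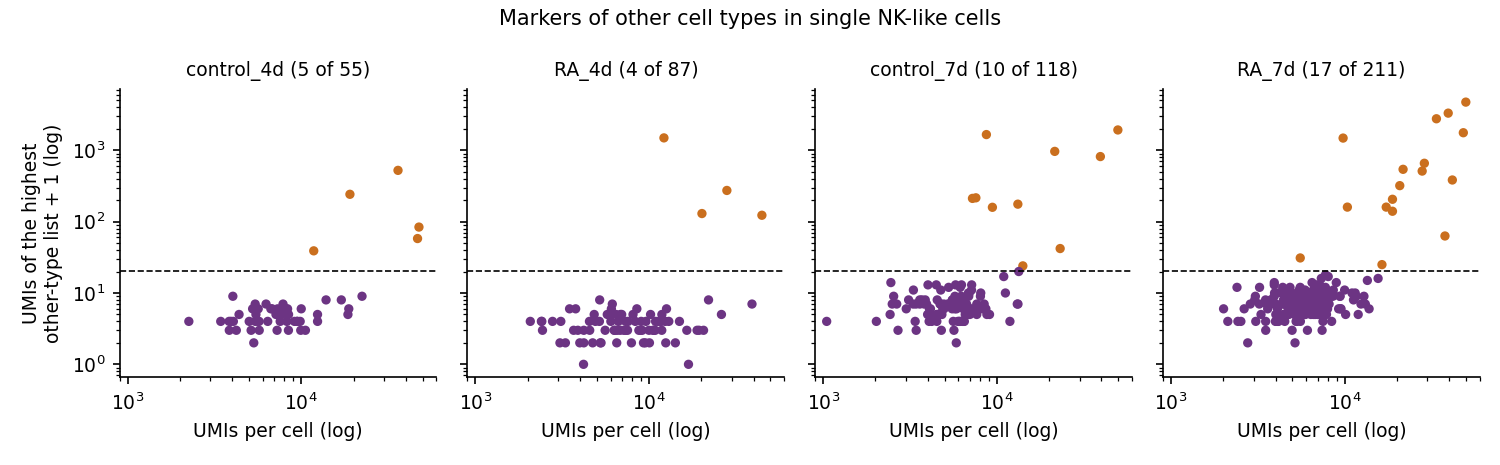
Each point is 1 NK-like cell, with its UMIs on the horizontal log axis and, on the vertical log axis, 1 plus its UMIs of the highest of the 6 other-type marker lists, in 1 panel per library. The dashed line marks the limit of 20 UMIs. The mixed cells (orange) number 5 of 55 in control_4d, 4 of 87 in RA_4d, 10 of 118 in control_7d and 17 of 211 in RA_7d.

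The other-type lists differed in level between the libraries. The 5 mesenchymal markers summed to 1270, 5840, 200 and 9870 CPM in control_4d, control_7d, RA_4d and RA_7d, with *Col3a1* the most abundant at 612, 1740, 49.2 and 3580 CPM, and at 141, 308, 56.3 and 404 CPM without mixed cells. The 5 neutrophil markers summed to 8.94, 475, 1930 and 13.9 CPM, led by *S100a8* at 3.58, 194, 981 and 8.46 CPM, and at 2.51, 11.3, 64.5 and 9.11 CPM without mixed cells. The 8 macrophage markers summed to 301, 237, 262 and 167 CPM, led by *Lyz2*, and the 7 dendritic markers to 472, 40.5, 504 and 351 CPM, led by *H2-Ab1*, while *Siglech* and *Xcr1* stayed at 0. The 3 endothelial markers summed to 211, 125, 55.2 and 132 CPM.

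Haemoglobin and collagen transcripts were found in many cells at low level. *Col3a1* had a UMI in 67.3%, 79.7%, 40.2% and 88.2% of the NK-like cells. *Hbb-bs* (β-globin) had a UMI in 76.4%, 78.8% and 87.2% of the NK-like cells of control_4d, control_7d and RA_7d, and in 9.2% of those of RA_4d. Its level was 147, 1530, 9.6 and 822 CPM, and without mixed cells 194, 279, 11 and 312 CPM. Mesenchymal cells, which do not make haemoglobin, held it at 314, 267, 26 and 264 CPM, and macrophages at 375, 497, 20.8 and 282 CPM. RA_4d was thus the lowest library in each of these cell types.

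NK-like cells made up a larger share of the RA libraries than of the control libraries at both time points. At 4 dpf control_4d held 55 of them, 0.859% of its kept cells (exact Clopper-Pearson interval 0.648% to 1.12%), and RA_4d held 87, or 1.74% (1.39% to 2.14%). At 7 dpf control_7d held 118, or 1.31% (1.08% to 1.56%), and RA_7d 211, or 2.25% (1.96% to 2.58%). The RA to control ratio was 2.02 (1.43 to 2.89) at 4 dpf and 1.73 (1.37 to 2.18) at 7 dpf. The intervals of RA and control did not overlap at either time point, but they leave out the differences between mice. The share at 7 dpf exceeded that at 4 dpf by 1.52 times (1.09 to 2.13) in control and 1.3 times (1.01 to 1.68) in RA. Without mixed cells the shares were 0.781%, 1.19%, 1.66% and 2.07% in control_4d, control_7d, RA_4d and RA_7d. With a further limit of no T cell receptor constant region UMI, which kept 52 cells, the RA to control ratio was 4.8 (1.53 to 19.9, 15 and 4 cells) at 4 dpf and 0.805 (0.378 to 1.69, 15 and 18 cells) at 7 dpf, where the order was the opposite. Against the sum of NK-like and T cells the ratio was 1.11 (0.785 to 1.59) and 1.33 (1.05 to 1.68).

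CD3-positive T cells, defined by at least 2 UMIs of *Cd3e*, *Cd3d* and *Cd3g*, served as the comparison. They were 1.44%, 1.77%, 2.44% and 1.75% of the kept cells in control_4d, control_7d, RA_4d and RA_7d, and 538 in all. Their RA to control ratio was 1.7 (1.28 to 2.25) at 4 dpf and 0.99 (0.791 to 1.24) at 7 dpf. NK-like cells per 100 T cells were 59.8 (42.0 to 84.4), 73.8 (57.6 to 94.1), 71.3 (53.5 to 94.7) and 129 (104 to 159). The first 3 libraries had overlapping intervals, and RA_7d was the highest. Under the cell limits of the study's methods control_4d was at 97.7 (62.7 to 152) and RA_7d at 125 (97.8 to 161). With no receptor constant region UMI the values were 4.35, 11.2, 12.3 and 9.15, and RA_7d was not the highest. Cells past the cytotoxic limits that did carry CD3, 51 in all, were 0.109%, 0.177%, 0.24% and 0.171% of the kept cells.

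A share depends on all other cells of the library. Cells with a *Ptprc* (CD45) UMI numbered 4025, 3735, 3153 and 2587, and mesenchymal cells 1204, 3419, 917 and 4434. Of these, NK-like cells were 1.37%, 3.11%, 2.76% and 8.12%, and the RA to control ratio at 7 dpf was 2.61 (2.07 to 3.31) on this base. When every cell was thinned to 2000 UMIs before the limits were applied, NK-like cells per 100 T cells were 57.5 in control_7d and 90.3 in RA_7d. RA_7d was still the higher of this pair.

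**Figure D2:**
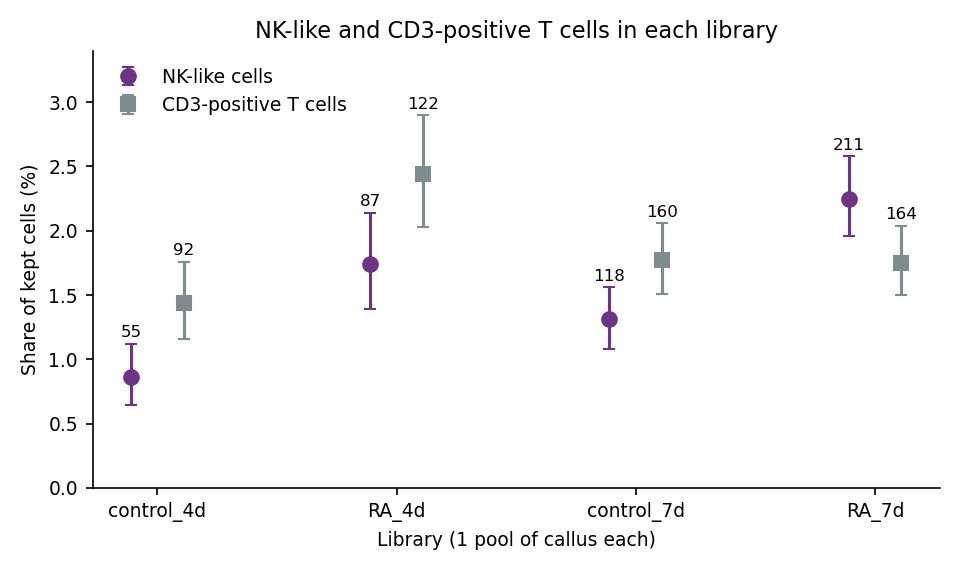
Share of kept cells (%) that were NK-like (circles) or CD3-positive T cells (squares) in each library, with exact 95% intervals for counting error and the number of cells above each point. NK-like cells went from 0.859% to 1.74% at 4 dpf and from 1.31% to 2.25% at 7 dpf between control and RA, whereas T cells were at 1.77% and 1.75% at 7 dpf.

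NK-like cells were next set against the T cells of the same library, gene by gene. Ratios were taken as log2 of CPM plus 10, and a gene counted only when it was past 2-fold in the same direction in all 4 libraries, a rule of size and not a test. Of 10188 genes compared, 95 (0.932%) were higher and 70 (0.687%) lower in NK-like cells. Apart from the rule genes, the genes highest by their smallest ratio over the libraries were *Klra4*, *Klra8*, *Car2*, *Klrb1b*, *Irf8*, *Klri2* and *Klra3*. *Car2*, a carbonic anhydrase, was at 326, 258, 191 and 270 CPM in NK-like cells and 6.2, 17.6, 4.86 and 20.9 CPM in T cells. *Klrb1b*, an inhibitory receptor of the NK1.1 family, was at 166, 177, 181 and 196 CPM and at most 9.92 CPM in T cells. The lowest, apart from the CD3 genes, were *Trac*, *Themis*, *Fam169b*, *Bcl11b*, *Cd8b1*, *Gm8369* and *Cpm*. *Bcl11b*, a factor of T cell commitment, was at 0, 3.68, 14.4 and 12.7 CPM against 183, 155, 169 and 179 CPM. Without mixed cells of either type 229 genes were past 2-fold in all 4 libraries, and these included 155 of the 165.

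Of 25 activating and inhibitory NK receptors compared, 12 were higher, among them *Ncr1* and *Klrb1c*, which the rule used, and 1, the T cell inhibitory receptor *Ctla4*, was lower. The CD94 and NKG2 genes *Klrd1*, *Klrk1*, *Klrc1* and *Klrc2* belonged to the 12. *Klrd1* was at 504, 589, 590 and 589 CPM in the NK-like cells of control_4d, control_7d, RA_4d and RA_7d and at 156, 174, 197 and 177 CPM in T cells. These levels were near constant over the libraries in both cell types. *Pdcd1* (PD-1) was at 1.23 CPM in control_7d and at 0 in the other libraries of NK-like cells, against 7.44 to 34.6 CPM in T cells. The terminal maturation receptor *Klrg1* was at 10.7 to 12.7 CPM in NK-like cells, against 11.3 to 79.4 CPM in T cells.

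Of 8 Ly49 genes compared, 5 were higher (*Klra3*, *Klra4*, *Klra7*, *Klra8* and *Klra9*). *Klra8* (Ly49H) was at 258, 367, 370 and 577 CPM in control_4d, control_7d, RA_4d and RA_7d and at 13.6, 8.42, 0 and 23.8 CPM in T cells. *Klra4* (Ly49D) was at 329, 395, 359 and 533 CPM, against at most 24.5 CPM. RA_7d had the highest level of both genes. Single cells expressed them unevenly. A *Klra8* UMI was found in 38.2%, 44.1%, 50.6% and 54.5% of the NK-like cells, and a *Klra4* UMI in 41.8%, 37.3%, 39.1% and 40.8%. After thinning to 2000 UMIs the *Klra8* shares were 27.3%, 32.5%, 36.8% and 43.6%. The Ly49 genes are close paralogs in 1 cluster on chromosome 6, and reads could have been split between them in counting.

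Of 17 receptor adaptors and signalling genes compared, 3 were higher (*Tyrobp*, *Fcer1g* and *Plcg2*) and 1, *Lat*, the adaptor of the T cell receptor, lower (7.16 to 16.8 against 89.5 to 106 CPM). *Fcer1g* had a UMI in every NK-like cell and was at 1150, 1230, 1160 and 1070 CPM. *Hcst* (DAP10), the partner of NKG2D, was at 368 to 443 CPM in NK-like cells and 216 to 410 CPM in T cells and was not past 2-fold.

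Among 22 granule genes compared, 8 were higher, namely *Gzma*, *Gzmc*, *Prf1*, *Nkg7*, *Ctsw*, *Serpinb9*, *Serpinb6b* and *Fasl*. *Gzma* and *Nkg7* are genes of the rule, so their place in this count was fixed by the choice of cells. *Gzma* was at 2320 (2200 to 2450, exact Poisson interval), 2160, 2730 and 1910 CPM in control_4d, control_7d, RA_4d and RA_7d, and *Prf1* at 109, 99.5, 180 and 88.9 CPM, against 5.36 to 10.1 CPM in T cells. *Serpinb9*, which shields cells from their own granzyme B, was at 428, 398, 523 and 435 CPM. *Gzmb* did not reach 2-fold in every library, with 252, 140, 335 and 151 CPM against 84.3, 129, 61.5 and 87.3 CPM in T cells. *Gzmk* was low in both, and *Gzmd*, *Gzme* and *Gzmg* were not detected in NK-like cells.

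The chemokines and cytokines were less separated. Of 16 compared, only *Ccl4* was past 2-fold in all 4 libraries. *Ccl5* was the most abundant, at 3070, 3060, 4240 and 3870 CPM in control_4d, control_7d, RA_4d and RA_7d, and at 1060 to 2020 CPM in T cells. *Xcl1*, a ligand for XCR1 on dendritic cells, was at 399, 654, 354 and 449 CPM, and at 39.7, 112, 197 and 116 CPM in T cells. The gap was smallest in RA_4d, where it was 0.82 on the log2 scale. An *Xcl1* UMI was found in 64.4% to 75.4% of NK-like cells, 9.78% to 24.4% of T cells and at most 0.380% of mesenchymal cells. After thinning these were 32.2% to 49.3% of NK-like and 5.56% to 14.2% of T cells. *Ifng* was at 112 to 192 CPM. *Tnf* was at most 18.4 CPM and *Csf2* at most 11.1 CPM.

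Of 30 transcription factors compared, *Eomes*, *Tbx21*, *Irf8*, *Nr4a2* and *Myb* were higher and *Lef1* and *Bcl11b*, which belong to the T cell programme, lower. *Irf8* was at 435, 362, 589 and 361 CPM, against 23.5 to 57.0 CPM in T cells. *Tbx21* was at 333 to 394 CPM against 72.7 to 115 CPM. *Runx3* was higher in each library but past 2-fold in control_7d only, at 326, 341, 394 and 250 CPM against 202, 157, 227 and 162 CPM. Cytokine receptors divided, with *Il2rb*, *Il12rb2* and *Il18rap* higher and *Il7r*, *Il21r* and *Tnfrsf4* lower. *Il7r* was at 5.37 to 21.8 CPM in NK-like cells and 130 to 220 CPM in T cells.

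Of 17 genes of the T cell receptor complex and its coreceptors 13 were lower, 3 of which the rule used. *Trac* was at 5.37, 7.37, 7.2 and 12.7 CPM against 154, 204, 204 and 286 CPM. Of 17 tissue residency and ILC1 genes none was higher and 5 were lower (*Itgae*, *Cxcr6*, *Il7r*, *Inpp4b* and *Il21r*), with a list median of 0.00. *Cxcr6*, a chemokine receptor of ILC1 and resident T cells, was at 3.58, 25.8, 1.2 and 10.3 CPM against 95.5, 153, 64.8 and 65.0 CPM. *Gata3* was close in both cell types, and *Il22* and *Il5* were at 0 in NK-like cells.

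**Figure D3:**
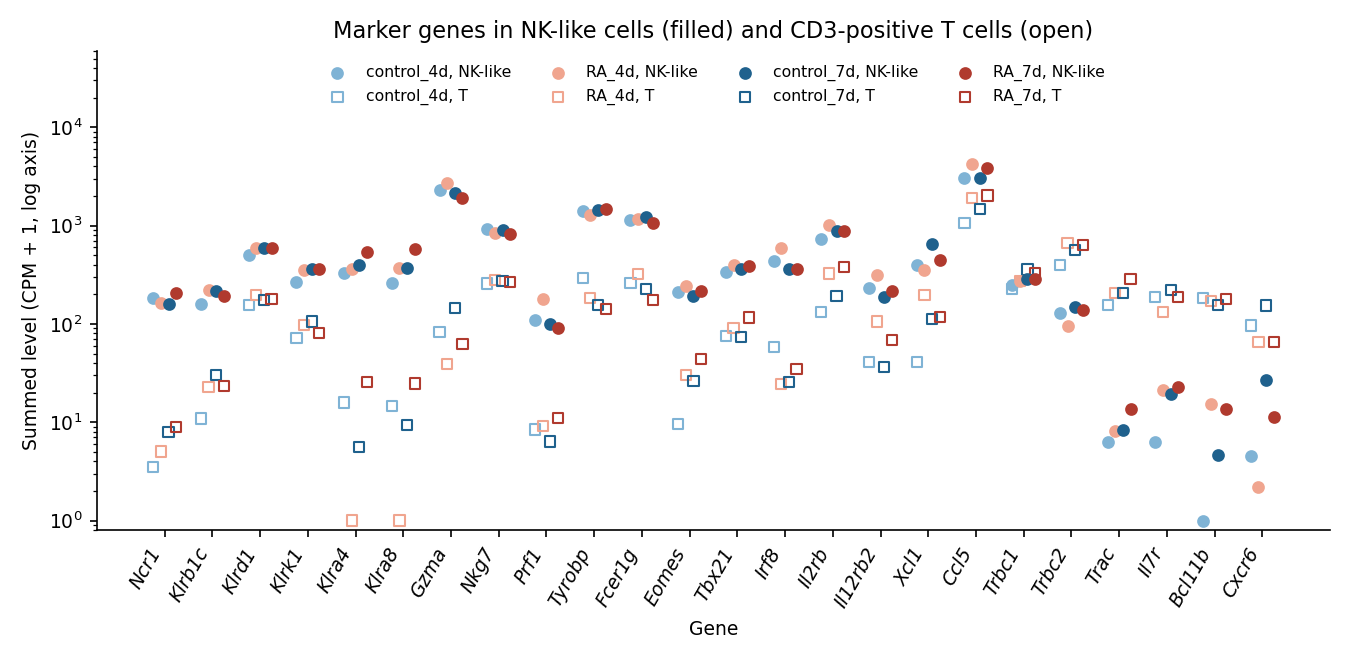
Summed level (CPM plus 1, log axis) of 24 marker genes in NK-like cells (filled circles) and CD3-positive T cells (open squares) of each library. Receptor, granule and adaptor genes lay higher in NK-like cells in all 4 libraries. *Trbc1* overlapped between the cell types, and *Trac*, *Il7r*, *Bcl11b* and *Cxcr6* lay lower.

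A smaller comparison used the 51 CD3-positive cells that also passed the cytotoxic limits, 7, 16, 12 and 16 by library. Against them 46 genes were past 2-fold in all 4 libraries. Of the 165 genes above, 130 could be compared in these small sums, and 23 were past 2-fold. These cells carried *Eomes* at 110 CPM and *Tyrobp* at 547 CPM, against 216 and 1420 CPM in the NK-like cells.

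Within the NK-like cells, the level of *Gzma* went together with other genes. The 435 cells that were not mixed were divided at the median *Gzma* CPM of their library into an upper and a lower group (25 and 25, 54 and 54, 41 and 42, and 97 and 97 cells). Because the division uses a measured gene of the same cells, the ratios are a description. Of 6106 genes compared, 2 (0.0328%) were past 2-fold upward in the upper group of all 4 libraries, *Gzma* itself and *Itgam*. A further 7 (0.115%) were past 2-fold downward, namely *Dscam*, *St6galnac3*, *Tmem176b*, *Rora*, *Ckb*, *Gpr183* and *Traf1*. Several of these rested on single cells. With the cell holding most UMIs of the gene left out of each lower group, *St6galnac3* was the 1 gene of the 7 still past 2-fold in all 4 libraries. *Dscam* then fell short in RA_4d, where 1 cell held 29 of 44 UMIs of the lower group (log2 ratio -0.80). *Tmem176b* (3 of 4 UMIs), *Rora* (25 of 61) and *Gpr183* (6 of 21) did so in control_4d, at -0.56, -0.64 and -0.83. *Ckb* fell short in control_4d (7 of 9 UMIs) and RA_4d (2 of 9), and *Traf1* in RA_7d, at -0.98. *Itgam* stayed past 2-fold in all 4 libraries without the highest cell of each upper group, with log2 ratios of 1.26 or more. The lower group had the higher median depth in every library (8180 against 5714 UMIs in control_4d, 5859 against 5242 in control_7d, 8870 against 6141 in RA_4d and 6345 against 5561 in RA_7d), and its part in these ratios was not tested.

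*Itgam* (CD11b), which mature NK cells gain, was at 104, 66.9, 77.1 and 74.5 CPM in the upper groups of control_4d, control_7d, RA_4d and RA_7d and at 13.3, 14.9, 18.6 and 12.7 CPM in the lower groups. The groups did not overlap. *Itga2* (CD49b), a conventional NK cell integrin, was at 116, 102, 194 and 159 CPM against 35.5, 53.5, 65.1 and 47.6 CPM. *Klra4* and *Prf1* were also higher in every upper group, *Prf1* with 244, 180, 268 and 163 CPM against 75.4, 65.4, 156 and 71.5 CPM. *Ccl5* was at 5310 to 7250 CPM against 1600 to 3640 CPM.

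The following genes were picked after their values had been seen. *Rora*, a nuclear receptor of innate lymphoid cells, was at 270, 422, 221 and 383 CPM in the lower groups and 104, 84.5, 53.6 and 109 CPM in the upper groups. Without the highest *Rora* cell of each lower group the first 4 levels were 169, 378, 188 and 359 CPM. *Gpr183* (EBI2), an oxysterol receptor that guides lymphocyte positioning, was at 93.1, 241, 100 and 181 CPM against 34.8, 66.9, 23.5 and 15.6 CPM. *Il7r*, the IL-7 receptor, had 61 UMIs in the lower groups and 1 in the upper groups, and all 38 *Cxcr6* UMIs of the unmixed cells lay in the lower groups. *Xcl1* was past 2-fold in the lower group of RA_4d (546 against 168 CPM) and RA_7d (802 against 301 CPM), but not in control_4d (572 against 511 CPM) or control_7d (901 against 739 CPM). *Ncr1* was at 313, 180, 184 and 229 CPM in the upper and 204, 190, 179 and 289 CPM in the lower groups. The rule requires *Ncr1* or *Klrb1c* where *Gzma* is absent, which was so in 6, 19, 6 and 26 cells of the lower groups.

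**Figure D4:**
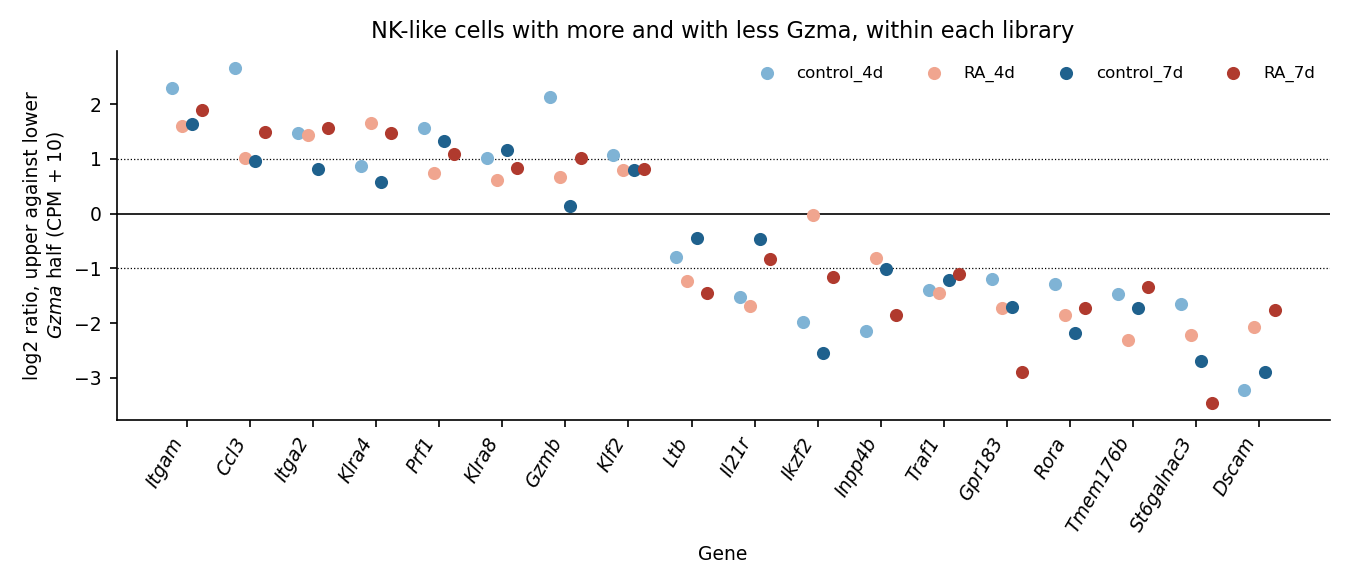
Log2 ratio (CPM plus 10) of 18 genes between unmixed NK-like cells above and below the median *Gzma* level of their library, with 1 point per library and dotted lines at 2-fold. *Itgam* was past 2-fold upward in all 4 libraries, and *Traf1*, *Gpr183*, *Rora*, *Tmem176b*, *St6galnac3* and *Dscam* downward. Without the highest cell of each lower group *St6galnac3* alone of these 6 stayed past 2-fold in all 4 libraries.

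A UMI of *Itga1* (CD49a) or *Cxcr6*, both markers of tissue residency, was found in 75 cells (15.9%), and the cells were also divided by *Eomes*. The share was 11.6%, 17.9%, 5.97% and 12.7% of the *Eomes*-positive cells and 8.33%, 27.5%, 20% and 24.6% of the *Eomes*-negative cells. It was higher without *Eomes* in 3 libraries and lower in control_4d. Over all NK-like cells the share was 10.9%, 22%, 9.2% and 16.6% in control_4d, control_7d, RA_4d and RA_7d, so it was higher at 7 dpf in both conditions. *Itga1* is not specific to lymphocytes, since 28.4% to 42.9% of mesenchymal cells held a UMI, and the part of mesenchymal RNA in this share was not tested. For *Cxcr6*, where at most 0.673% of mesenchymal cells held a UMI, the share of NK-like cells was 3.64%, 7.63%, 1.15% and 5.21%, and after thinning at most 1.9%, too few cells to read an order from.

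Gene levels of NK-like cells in RA and control were compared at 7 dpf, where the sums were largest. Of 6115 genes compared, 119 (1.95%) were past 2-fold, 99 of them higher and 20 lower in RA. Without mixed cells 17 of 4724 genes (0.36%) were past 2-fold, 9 higher and 8 lower, and 5 of these were among the 119. Of the 119 genes, 18 had enough UMIs to be compared without mixed cells. At 4 dpf the numbers were 106 of 4183 genes (2.53%), 31 higher and 75 lower, and without mixed cells 42 of 3518 (1.19%), 30 higher and 12 lower, with 20 in common. Of those 106 genes, 42 had enough UMIs to be compared without mixed cells. With all cells, none of the 4159 genes compared at both time points was past 2-fold in the same direction at both. Without mixed cells *Bst2* was, though at 4 dpf this depended on which single cells were left out, as given below. Also with all cells, 8 genes were past 2-fold in opposite directions at the time points (*Col3a1*, *Serping1*, *Sfrp2*, *S100a8*, *S100a9*, *Clec3b*, *Dcn* and *C3*). In control_4d all 69 *Sfrp2* UMIs came from 1 cell, and 85 *Clec3b*, 78 *Serping1* and 69 *C3* UMIs from 3 cells each. Without mixed cells *Col3a1* alone of the 8 could be compared at both time points, with log2 ratios of -1.19 at 4 dpf and 0.38 at 7 dpf.

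Mixed cells carried much of the difference in the genes named for a rise or fall at 7 dpf. These were chosen for the same direction at 4 dpf with all cells. That choice left out some larger 7 dpf ratios with the other direction at 4 dpf, such as *S100a9* at -4.26 and *C3* at 2.73 (log2). Without mixed cells the direction at 4 dpf was the opposite for *H2-Eb1* (15.1 CPM in control_4d and 2.75 CPM in RA_4d) and *Cd74* (17.6 and 12.4 CPM), both at few UMIs. The MHC class II gene *H2-Eb1* was at 19.6 CPM in control_7d and 172 CPM in RA_7d, a ratio of 8.77 (5.31 to 15.6), and without mixed cells at 17.7 and 18.2 CPM. *Cd74*, the invariant chain of MHC class II, was at 79.8 and 261 CPM, and without mixed cells at 46.8 and 42.3 CPM. *Spp1* (osteopontin) was at 447 and 46.5 CPM, and without mixed cells at 77.4 and 48.9 CPM. Neither *Cd74* nor *Spp1* was past 2-fold without mixed cells, and the order of *Cd74* was then reversed. *H2-Eb1* had too few UMIs to be compared in that setting. *H2-Aa* was at 16 and 143 CPM (9.67 and 14.9 CPM without mixed cells), and *Fabp5*, a fatty acid binding protein, at 138 and 49 CPM (30.6 and 9.11 CPM, likewise too few UMIs). *H2-Aa* belongs to the dendritic list by which mixed cells were defined, so its lower level without them was in part fixed by that choice. *Setd1a*, a histone methyltransferase, was at 16 and 42.9 CPM with and 12.9 and 39.8 CPM without mixed cells, a log2 ratio of 1.03 and 1.12. *Fam129a* and *Mif* had the same direction in both settings, at 1.11 and 0.80 for *Fam129a* and -1.04 and -0.63 for *Mif* on the log2 scale. Without mixed cells the genes past 2-fold upward at 7 dpf included *Setd1a*, *Klra9*, *Adamts14*, *Dcn*, *Lockd*, *Gabpb2*, *Kbtbd11* and *Ckap5*. Those past it downward were *Cxcl10*, *Ifi27l2a*, *Bst2*, *Ifitm3*, *Col4a1*, *Tmem176b*, *Igfbp7* and *Rnf213*. With the cell holding most UMIs of each gene left out of the library with the higher level, 9 of the 17 genes stayed past 2-fold, among them *Setd1a*, *Klra9*, *Dcn*, *Cxcl10*, *Ifi27l2a*, *Bst2*, *Ifitm3* and *Tmem176b*. At 4 dpf 20 of the 42 did. *Dcn* was at 35.5 and 84.5 CPM in unmixed NK-like cells of control_7d and RA_7d, and at 2140 and 4620 CPM in mesenchymal cells. The part of mesenchymal RNA in this ratio was not tested.

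Of 20 NK receptors compared at 7 dpf, 0 were past 2-fold (median log2 ratio -0.01, and 0.03 without mixed cells), and of 16 granule genes likewise 0 (median 0.07 in both settings). The median over all genes was 0.01, and since 1.95% of all genes (0.36% without mixed cells) were past 2-fold, these counts of 0 were near the background. With all cells *Klrd1*, *Klrk1* and *Klre1* differed by at most 0.01 on the log2 scale. *Gzma* had an RA to control ratio of 0.885 (0.835 to 0.939) at 7 dpf, and without mixed cells of 0.966 (0.909 to 1.03). *Prf1* had a ratio of 0.893 (0.677 to 1.19), and without mixed cells of 0.978 (0.732 to 1.32). *Gzmb* had a ratio of 1.08 (0.858 to 1.35), and without mixed cells of 1.06 (0.846 to 1.35). All 3 ratios lay within 2-fold of equal levels, as did their intervals.

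Of 6 Ly49 genes compared at 7 dpf, 4 had a higher level in RA_7d and none was past 2-fold (median log2 ratio 0.30). Without mixed cells 5 of 6 had a higher level and 1, *Klra9*, was past 2-fold (median 0.32). Over all genes, 3130 of 6115 had a higher level in RA_7d. *Klra9* (Ly49I, chr6:130178675-130193112 in GRCm38) was at 87.2 CPM in control_7d and 172 CPM in RA_7d (ratio 1.97, 1.51 to 2.59), and without mixed cells at 100 and 224 CPM (2.24, 1.69 to 3.0), spread over 25 of 108 and 80 of 194 cells. At 4 dpf its order was the opposite, with 159 CPM in control_4d and 112 CPM in RA_4d, and 221 and 121 CPM without mixed cells. *Klra8* had a ratio of 1.57 (1.38 to 1.79) at 7 dpf and 1.43 (1.17 to 1.76) at 4 dpf, and without mixed cells of 1.73 (1.5 to 1.99) and 1.34 (1.08 to 1.68), without reaching 2-fold. *Klra1* was past 2-fold at 4 dpf alone, at 12.5 CPM in control_4d and 56.4 CPM in RA_4d, with 7 dpf levels of 49.1 and 48.4 CPM. Without mixed cells its 4 levels were 17.6, 64.5, 64.5 and 63.8 CPM.

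Of 8 cytokine and chemokine genes compared at 7 dpf, 7 had a ratio below 1 (median log2 ratio -0.38), and without mixed cells 5 of 7 (median -0.21). Over all genes, 2985 of 6115 had a lower level in RA_7d, and without mixed cells 2276 of 4724. *Ccl3* was at 76.9, 181, 40.8 and 78.0 CPM in control_4d, control_7d, RA_4d and RA_7d, so control_7d stood above the others. Without mixed cells the levels were 52.8, 119, 43.9 and 97.8 CPM, and the ratio at 7 dpf changed from 0.432 (0.338 to 0.551) to 0.819 (0.608 to 1.11). *Xcl1* had a ratio of 0.686 (0.613 to 0.768) at 7 dpf and 0.887 (0.743 to 1.06) at 4 dpf, and without mixed cells of 0.68 (0.606 to 0.764) and 0.717 (0.599 to 0.86). *Ccl5* had the opposite order, at 1.26 (1.21 to 1.32) at 7 dpf and 1.38 (1.3 to 1.46) at 4 dpf, and without mixed cells at 1.29 (1.23 to 1.36) and 1.15 (1.08 to 1.22).

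Of 15 interferon response genes compared at 7 dpf without mixed cells, 13 had a lower level in RA_7d than in control_7d (median log2 ratio -0.70), and 3 were past 2-fold (*Cxcl10*, *Ifi27l2a* and *Bst2*). Among all 4724 genes 2276 were lower and 8 (0.169%) were lower past 2-fold. With all NK-like cells, 15 of 20 were lower (median -0.29), against 2985 of 6115 genes in all. Of the 20, *Bst2* and *Cxcl10* were then past 2-fold downward, as 0.327% of all genes were, and *Iigp1*, an interferon-inducible GTPase, was past it upward at 12.3 and 41.7 CPM. Without mixed cells *Iigp1* was at 14.5 and 5.80 CPM. *Bst2* (tetherin, chr8:71534255-71537456 in GRCm38) was at 206 and 96.1 CPM in control_7d and RA_7d, and without mixed cells at 211 and 45.6 CPM. It had the same order at 4 dpf, at 152 and 74.4 CPM, and without mixed cells at 156 and 65.9 CPM, which is past 2-fold at both time points (log2 ratio -1.13 and -1.99). Without the highest control cell the ratios were -0.88 and -1.78, so the call at 4 dpf was lost. Without the highest cell of each library the 4 dpf levels were 130 and 53.4 CPM, which is past 2-fold. T cells held *Bst2* at 205, 225, 92.3 and 126 CPM, in the same order. The whole interferon list summed to 1800 and 1260 CPM in all NK-like cells of control_7d and RA_7d. It summed to 2340 and 2430 CPM in T cells, 1210 and 1660 CPM in mesenchymal cells and 2330 and 1990 CPM in macrophages. The order of the list was thus the same in macrophages and the opposite in T cells and mesenchymal cells. *Isg15*, a ubiquitin-like modifier, was at 87.7, 174, 109 and 106 CPM in control_4d, control_7d, RA_4d and RA_7d, and *Irf7* at 16.1, 58.9, 28.8 and 28.4 CPM. For both, control_7d was the highest library. Without mixed cells *Isg15* was at 88, 216, 96.1 and 110 CPM and *Irf7* at 12.6, 54.8, 30.2 and 29.8 CPM. The list had a median of 0.18 at 4 dpf, and 0.12 without mixed cells.

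In control_7d *Cxcl10* and *Ifi27l2a* were concentrated in few cells, whereas *Isg15* had a UMI in 44 and *Bst2* in 38 of 108 unmixed cells. *Cxcl10*, a chemokine induced by interferon, was at 133 and 41.7 CPM in all NK-like cells of control_7d and RA_7d. It had 107 UMIs in 14 of 108 unmixed cells of control_7d, 46 of them in 1 cell, and 6 UMIs in 5 of 194 cells of RA_7d. Per cell, the interferon list summed to a median of 934, 1030, 924 and 929 CPM in control_4d, control_7d, RA_4d and RA_7d, and these medians were close. The 90th percentile was 1840, 3280, 2090 and 1840 CPM, and the highest cell 3820, 22000, 5310 and 5650 CPM. The 5 cells with the most such UMIs held 39.9%, 36%, 26.3% and 9.16% of the list's UMIs, out of 50, 108, 83 and 194 unmixed cells. Since 5 cells are a smaller part of a larger library, these shares do not have the same base. *Ifi27l2a* had 53 UMIs in 10 control_7d cells, 23 of them in 1 cell, and 14 in 11 RA_7d cells.

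Of 15 MHC class I genes, 14 had a lower level in RA_7d, with a median log2 ratio of -0.21 (13 of 15 and -0.23 without mixed cells) and none past 2-fold. The shares of lower genes given above for the whole table, 2985 of 6115 and 2276 of 4724 without mixed cells, stand beside these counts and those that follow. *H2-D1* was at 1700 and 1400 CPM, and at 1950 and 1660 CPM without mixed cells. Of 16 glycolysis genes, 14 were lower with a median of -0.33 (11 of 14 and -0.15 without mixed cells). The whole glycolysis list summed to 3010 and 2260 CPM in NK-like cells of control_7d and RA_7d. It summed to 2750 and 2580 CPM in T cells, 3190 and 2070 CPM in mesenchymal cells and 3460 and 2510 CPM in macrophages. The order was thus the same in each cell type. *Pkm* was at 350 and 204 CPM and *Aldoa* at 262 and 152 CPM, with log2 ratios of -0.57 and -0.69 once mixed cells were left out. The lactate transporter *Slc16a3* was past 2-fold downward with all cells, at 39.3 and 12.7 CPM, and had too few UMIs to be compared without mixed cells, at 9.67 and 6.63 CPM. Of 12 tissue residency and ILC1 genes compared without mixed cells, 10 were lower in RA_7d (median -0.34), and *Tmem176b* was past 2-fold with 59.7 and 17.4 CPM. With mixed cells *Tmem176b* was at 73.7 and 55.6 CPM.

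**Figure D5:**
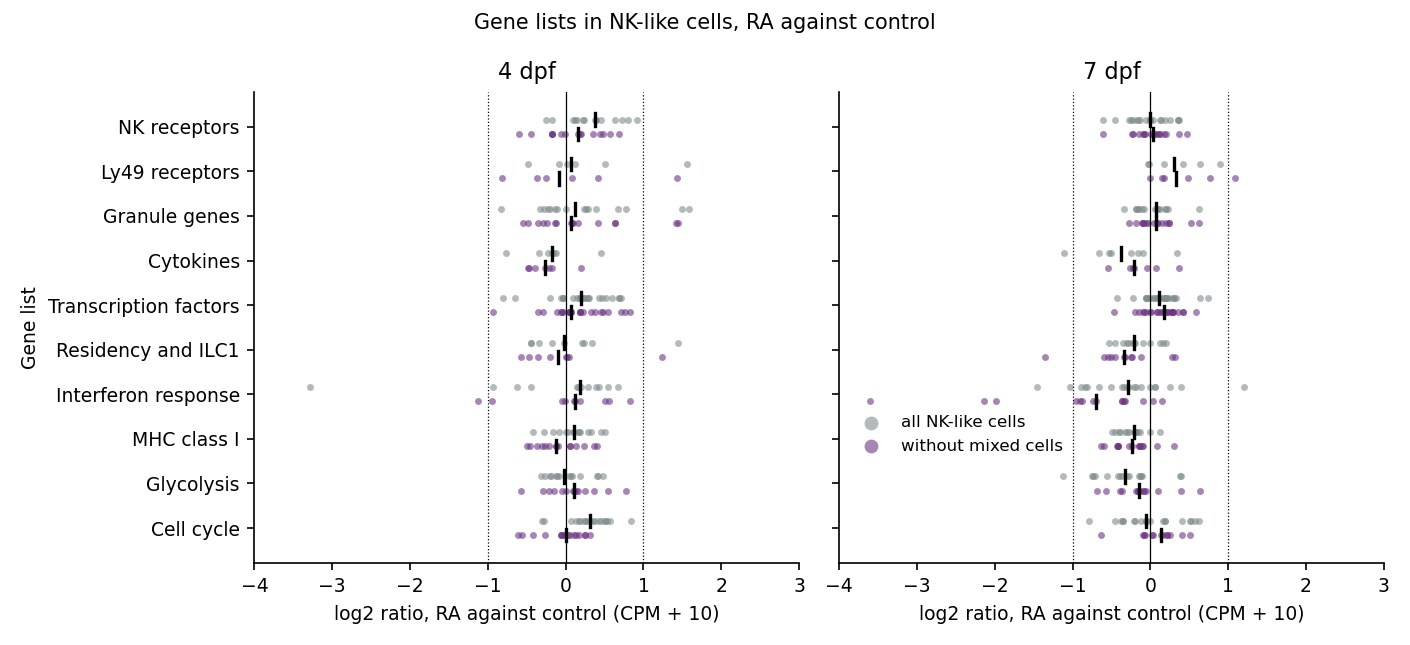
Log2 ratio of RA to control (CPM plus 10) for each compared gene of 10 gene lists in NK-like cells at 4 and 7 dpf, with all cells in grey and without mixed cells in purple. Black bars are list medians and dotted lines mark 2-fold. NK receptor and granule genes had medians near 0 at 7 dpf, and the interferon list without mixed cells had a median of -0.70.

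At 4 dpf fewer cells stood behind the sums, 55 in control_4d and 87 in RA_4d. Of 15 NK receptors, 13 were higher in RA_4d (median log2 ratio 0.38), but without mixed cells 8 of 15 were (median 0.16). Over all genes, 2253 of 4183 were higher in RA_4d, and 1885 of 3518 without mixed cells. No NK receptor was past 2-fold in either setting. *Rab27a*, needed for granule release, was at 25 and 88.8 CPM in control_4d and RA_4d, a ratio of 3.55 (1.99 to 6.8), and at 27.7 and 90.6 CPM without mixed cells. At 7 dpf it was at 49.1 and 41.7 CPM. *Gzmc* was at 16.1 and 68.4 CPM at 4 dpf, and 42 of its 57 UMIs in unmixed RA_4d cells came from 1 cell. *Prf1* was at 109 and 180 CPM (1.65, 1.22 to 2.26), and without mixed cells the ratio was 1.36 (0.999 to 1.87).

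*Ly6c2*, a Ly6C gene of maturing NK cells, monocytes and T cells, was at 76.9 and 200 CPM at 4 dpf, and without mixed cells at 32.7 and 227 CPM, a ratio of 6.93 (3.94 to 13.3). It was found in 6 of 50 and 25 of 83 unmixed cells. At 7 dpf it was at 192 and 140 CPM. In unmixed control_7d cells 56 of 155 *Ly6c2* UMIs came from 1 cell, and without the highest cell of each library the unmixed levels were 22.9 and 180 CPM at 4 dpf and 162 and 157 CPM at 7 dpf. *Il21r* was at 17.9 and 66.0 CPM at 4 dpf, a ratio of 3.69 (1.86 to 8.12), and at 43.0 and 33.2 CPM at 7 dpf. Without mixed cells its 4 dpf ratio was 2.97 (1.45 to 6.88), past 2-fold with a log2 ratio of 1.24. Without the highest RA_4d cell alone it was short of 2-fold, at 0.99. Without the highest cell of each library the unmixed levels were 13.3 and 54.8 CPM, which is past 2-fold. *S100a9*, a neutrophil protein, was at 3.58 and 834 CPM at 4 dpf, and without mixed cells at 0 and 72.8 CPM. In CD3-positive T cells of the same libraries it was at 6.2 and 4560 CPM, and in mesenchymal cells at 3.45 and 41.3 CPM. The same order was thus present in unrelated cells.

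Few cell cycle genes passed 2-fold between the time points, although most had the lower level at 7 dpf. In RA all 26 genes compared had a lower level at 7 dpf (median log2 ratio -0.66), and without mixed cells all 20 did (median -0.59). Over all genes, 3152 of 6060 were lower at 7 dpf in RA, and 2496 of 4894 without mixed cells. With all cells *Pclaf*, *Mcm3* and *Mcm5* were past 2-fold, 3 of 22 genes (0.363% of 6060) lower by that size. Without mixed cells *Top2a* and *Pclaf* were past 2-fold, 2 of the 20 genes (0.409% of 4894) that were lower by that size. In control without mixed cells all 11 compared were lower (median -0.64), and *Top2a* was past 2-fold, 1 of 11 genes (0.343% of 3209). With mixed cells 10 of 14 were lower in control (median -0.20), and *Cenpa* was past 2-fold, 1 of 57 genes (1.36% of 4203). Over all genes in control, 2026 of 4203 were lower at 7 dpf, and 1543 of 3209 without mixed cells. *Top2a* (topoisomerase IIα) was at 129, 63.9, 180 and 100 CPM in control_4d, control_7d, RA_4d and RA_7d, and at 171, 58, 185 and 87.0 CPM without mixed cells. Single cells held 28 of 68, 16 of 36, 39 of 135 and 30 of 105 of these unmixed UMIs, and without that cell of each library the levels were 107, 32.9, 139 and 63 CPM. Both 4 dpf libraries were above both 7 dpf libraries in all 3 sets of values. Without the highest 4 dpf cell alone *Top2a* was no longer past 2-fold in control or RA, nor *Pclaf* in RA (log2 ratio -0.78, -0.62 and -0.40). With the highest cell of each library left out, the levels of *Top2a* given above were past 2-fold in control and RA.

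Counted by cell, a *Mki67* or *Top2a* UMI was found in 36.4% (23.8% to 50.4%) of the NK-like cells of control_4d, 17.8% (11.4% to 25.9%) of control_7d, 29.9% (20.5% to 40.6%) of RA_4d and 19.4% (14.3% to 25.4%) of RA_7d. The 4 dpf cells were also deeper, with medians of 7534 and 7515 UMIs against 5860 and 6099. After thinning to 2000 UMIs a *Top2a* UMI was found in 9.09%, 3.42%, 10.3% and 8.06% of the cells, and a *Mki67* UMI in 5.45%, 5.13%, 5.75% and 3.79%. Taken singly and without thinning, *Mki67* was found in 10.9%, 11%, 17.2% and 8.06% of the cells, and *Top2a* in 34.5%, 11.9%, 24.1% and 16.6%, so the shares of *Mki67* were close in control_4d and control_7d. In CD3-positive T cells the shares with either gene were 17.4%, 20.6%, 21.3% and 28.7%, so the order between time points was not the same there. A *Mki67* UMI was found in 22.3%, 15.6%, 23.4% and 7.67% of mesenchymal cells. Macrophages held a *Top2a* UMI in 13.6%, 10.5%, 16.1% and 7.22%. The other gene was likewise lower at 7 dpf in both conditions in each of these cell types. After thinning the 7 dpf shares stayed lower, except for *Top2a* in control mesenchymal cells (4.33% and 5.28%). The difference between the cell types was not tested. Between RA and control the cell cycle list had a median log2 ratio of 0.01 over 16 genes at 4 dpf and 0.14 over 13 genes at 7 dpf without mixed cells. With all cells 17 of 19 genes were higher in RA_4d (median 0.31), against 2253 of 4183 genes in all, and at 7 dpf 12 of 20 were lower in RA_7d (median -0.05).

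Granule genes in RA had a median log2 ratio of -0.11 at 7 dpf against 4 dpf, with *Gzmb* (335 and 151 CPM) and *Gzmc* (68.4 and 14.5 CPM) past 2-fold lower. Without mixed cells the median was -0.01 and *Gzmb* was at 383 and 192 CPM, no longer past 2-fold. *Gzmc* was then at 78.3 and 19.9 CPM, and at 21.4 CPM in RA_4d without its highest cell. In control *Gzmb* was at 252 and 140 CPM, and at 342 and 181 CPM without mixed cells. *Klra9* was lower at 7 dpf in control (159 and 87.2 CPM) and higher in RA (112 and 172 CPM). Without mixed cells the levels were 221 and 100 CPM in control, past 2-fold lower (189 CPM without the highest control_4d cell, and then not past it), and 121 and 224 CPM in RA. All 7 cytokine genes compared in RA without mixed cells were higher at 7 dpf (median 0.51), as were 5 of 7 in control (median 0.42), where *Ccl3* was past 2-fold (52.8 and 119 CPM), as 0.966% of 3209 genes were upward. In control_7d 18 of its 74 UMIs came from 1 cell, and without that cell the level was 90.7 CPM, no longer past 2-fold. Over all genes without mixed cells, 2398 of 4894 were higher at 7 dpf in RA and 1666 of 3209 in control.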

How the data were processed

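Single-cell RNA libraries of callus were made by the authors with Chromium Single Cell 3′ v3.1 chemistry. The deposited values are raw UMI counts of 32285 genes per barcode, which per the submitters' processing notes came from Cell Ranger 7.0.1 and mm10, with no normalization. A UMI count is a count of captured molecules, so depth per cell sets precision.

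Cells were chosen by UMI limits, and UMIs were summed per library and cell type. Ratios were taken on log2(CPM + 10), for genes with at least 50 UMIs over the sums compared. Where the sums differ in total, a gene found mainly in the larger sum passes this minimum at a lower CPM. Intervals are 95% Clopper-Pearson for shares, exact Poisson for levels and exact conditional for ratios. The calculation was tested on simulated data. Doublets were called with Scrublet in scanpy 1.11.5 and left in. It called 2 of 5004 kept cells in RA_4d and so did not work there. In control_4d it called 76 of 6400 kept cells, but none of the 5 mixed NK-like cells. Other tools were Python 3.11.15, numpy 2.4.6, scipy 1.17.1, pandas 2.3.3 and matplotlib 3.10.9. Gene positions are from GENCODE for GRCm38, the assembly of mm10, and promoters from RefSeq.

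The members and lists were chosen with earlier results of these data known. Genes were named by these rules: the genes of the limits and *Xcl1*; members of 27 lists that were most abundant or past 2-fold; up to 10 rises and 10 falls of RA against control at 7 dpf past 2-fold with the same direction at 4 dpf (5 of each were found); and the 10 highest and 10 lowest genes against T cells. Genes of the division by *Gzma*, genes past 2-fold without mixed cells, and *Trbc1*, *Hbb-bs* and *S100a9* were named after their values were seen. The limit for mixed cells and a doublet score limit of 0.2 were chosen after seeing the data. So was leaving out, for each gene past 2-fold, the cell with most of its UMIs in the library or *Gzma* group with the higher level. The list entries *Cd244*, *Klra13-ps*, *Cd49a*, *Trgc1*, *Trgc2* and *Mx1* matched no gene in the tables. Some genes of these comparisons are not reported here.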

Additional observations from a re-analysis of the deposited data

How the results depend on the processing

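A fit of condition and time over the 4 libraries, which would pair them by time point, was not made. The RA to control ratio of the NK-like share was 2.02 at 4 dpf and 1.73 at 7 dpf. Requiring no T cell receptor constant region UMI, which left 52 cells, changed them to 4.8 and 0.805, so the second reversed. With NK-like plus T cells as the denominator they were 1.11 and 1.33, and with *Ptprc*-positive cells the ratio was 2.61 at 7 dpf. NK-like cells per 100 T cells were 97.7 in control_4d under the limits of the study's methods, 57.5 in control_7d and 90.3 in RA_7d after thinning, and 4.35, 11.2, 12.3 and 9.15 in control_4d, control_7d, RA_4d and RA_7d with no receptor constant region UMI. The number of genes past 2-fold between RA and control, 106 at 4 dpf, was 35 with no constant region UMI, 42 without mixed cells, 20 without the cell with most UMIs of each gene as well, 171 with a pseudocount of 1 CPM and 323 with a minimum of 20 UMIs. The 119 at 7 dpf became 13, 17, 9, 225 and 187 in the same settings, 76 without Scrublet doublets, 77 without cells scoring 0.2 or more, and 64 with each cell weighted equally. The 165 genes against T cells became 418 with no constant region UMI, 291 with a pseudocount of 1 CPM and 46 against cytotoxic CD3-positive cells. Gene values were also recomputed in each setting. With a minimum of 20 UMIs all 50 were the same by construction, since that setting leaves the ratio of a gene unchanged. Without mixed cells 18 of 36 were the same, and with no constant region UMI 1 of 14. Over all settings, of 443 gene values recomputed, 359 were the same within counting error, 79 moved and 5 reversed at 7 dpf. These were *Ccl3* to 0.02 with no constant region UMI, *Iigp1* to -0.01 with equal weights, and *Hba-a1* to 0.08, 0.10 and 0.16 without Scrublet doublets, high scores or mixed cells. *Cd74* is not among these 5, although its log2 ratio at 7 dpf was 1.59 with all cells and -0.12 without mixed cells. Median-of-ratios scaling shifted the median of all genes by at most 0.05. The cause of these changes was not tested beyond what each setting leaves out.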
